A study of Mus musculus with 48 samples.

Results

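The comparison described here is that of MKOS with OKMS cassettes in *Nanog*-GFP+ cells of the CD44-low ICAM1-high gate, called 3NG+ cells, which are the most advanced cells sorted during reprogramming. Its members were chosen by their labels alone, as the 3 libraries of MKOS 3NG+ cells and the 3 of OKMS 3NG+ cells, 6 of the 48 libraries of the series. Both cassettes place Oct4, Sox2, Klf4, and c-Myc behind a doxycycline-inducible promoter as 1 transcript, ordered as the letters of their names are, and the Klf4 of OKMS is a shorter form that lacks the N-terminal amino acids present in MKOS. All cells of both groups carried the cassette in an intron of *Sp3* together with a CAG-driven reverse transactivator, and a GFP reporter at *Nanog* (TNG). The transgenic fibroblasts (MEFs) came from chimeric mouse embryos made with TNG MKOS or TNG OKMS ESCs, and were cultured with doxycycline and vitamin C after dilution with wild-type MEFs. Cells were sorted as E-CAD+ on day 10 per the series text, whereas the growth protocol gives 10 or 15 days. A cassette, its ESC line, and the chimeras from that line cannot be told apart in this design. No label says that the 3 libraries of a group came from separate cultures. The p-values rest on the spread between libraries within conditions, estimated over all 48 libraries of the series and not from these 6 alone. This spread may be technical.

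In the course of iPSC generation, fibroblasts first silence mesenchymal genes and take on epithelial ones, and only later activate the endogenous pluripotency network, of which *Nanog* is a late component. ICAM1 is gained and CD44 is lost on the way, so cells of the ICAM1-high gate with *Nanog*-GFP are close to an ESC-like state while the factors are still being expressed. KLF4 is a zinc finger factor that binds GC-rich promoters, takes part in both the epithelial program and the naive pluripotency network, and is itself a regulator of epidermal differentiation. RNA was read by STRT, which captures 5′ ends of polyadenylated transcripts, so a count reports transcripts that begin at a gene's own start, and the 4 factors on the shared cassette transcript need not be counted at their endogenous genes.

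The MKOS libraries held 4754632, 5062427, and 9730611 reads on transcripts, and the OKMS libraries held 7929689, 1429717, and 6989528. OKMS replicate 2 was the shallowest library of the series, and its level for 3 reads was 2.10 CPM (counts scaled to a common total of reads on transcripts), against 0.308 to 0.631 CPM in the other 5 libraries. These floors cover counting error only. Mitochondrial transcripts took 5.33% to 9.78% of the reads, and reads on repeats took 33.1% of all reads in MKOS replicate 1 and 19.2% to 22.9% in the others.

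The labels were checked against marker genes. *Nanog* was at 51.1, 86.3, and 90.7 CPM in MKOS and 90.0, 81.8, and 97.3 CPM in OKMS 3NG+ libraries, and at 0 in all 4 libraries of transgenic MEFs. The summed level of the 32 naive pluripotency genes was 14097, 15352, and 15510.4 CPM in MKOS and 18821, 18218, and 17122 CPM in OKMS, near the 18564 to 21496 CPM of iPSCs without doxycycline and above the 77.2 to 124 CPM of MEFs. The MKOS libraries were all below the OKMS libraries in this sum, but *Dppa5a* alone held 10015.3 to 11154 CPM of it in MKOS and 12954 to 14653 CPM in OKMS. Without *Dppa5a* and *Dppa3*, chosen after their values were seen, the order turned, at 4057, 4139, and 4385 CPM in MKOS and 3675, 3066, and 3083 CPM in OKMS. These sums are of CPM, whose scaling by library size alone is tilted toward MKOS, as given below. The summed level of 31 fibroblast genes was 1549, 479, and 1021 CPM in MKOS and 928, 625, and 609.8 CPM in OKMS, against 9686 to 12452 CPM in MEFs and 291 to 449.8 CPM in iPSCs. MKOS replicate 1 was the highest of the 6. *Cd44*, the gene of the marker selected against in the sort, was at 24.6, 2.77, and 5.34 CPM in MKOS and 2.90, 28, and 1.72 CPM in OKMS, so that MKOS replicate 1 and OKMS replicate 2 stood above the other 4 libraries. The gate is set on surface protein, and *Cd44* RNA was not used for it. In bulk RNA of sorted cells, fewer cells with a transcript and less transcript per cell cannot be told apart.

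Between the 3NG+ populations, 107 of 15630 tested genes were called at an FDR of at most 0.05 (edgeR quasi-likelihood test, Benjamini-Hochberg adjustment), which is 0.685% of them. Of these, 54 were higher in MKOS (0.345%) and 53 were higher in OKMS (0.339%). The median log2 fold change (MKOS minus OKMS, as everywhere below) of all tested genes was 0.01, and 50.4% of them were above 0. An unadjusted p under 0.05 was found for 1902 genes (12.2%), 6.33% in the direction of MKOS and 5.84% in that of OKMS, and the counts at this p in the gene lists below are to be read against these shares. Called genes differed by an absolute log2 fold change of at least 0.83, with a median of 2.10. The CPM of the 3 MKOS libraries lay apart from that of the 3 OKMS libraries in 53 of the 54 genes higher in MKOS, against 13.1% of all tested genes, and in 50 of the 53 genes higher in OKMS, against 4.1%. Genes were called on these same libraries, so this excess comes with the call. CPM is scaled by library size alone, so statements on overlap and summed levels, above and below, carry the shift toward MKOS given next. With DESeq2's size factors 102 genes were called, whereas scaling by library size alone moved the median of all genes to 0.17 and called 135 genes, 94 of them higher in MKOS. The count depended on single libraries, and it was 40 without MKOS replicate 1, 51 without MKOS replicate 2, 66 without OKMS replicate 1, and 44 without OKMS replicate 3. Without OKMS replicate 2, the shallow library, 87 genes were called. In all 6 of these fits 18 genes were called, namely *Ldhb*, *Laptm4b*, *Wbp5*, *Mt1*, *Mt2*, *Lima1*, *Gstm5*, *Tspan7*, *Armcx4*, *Hook1*, *Cdh3*, *Prdx6*, and *Cldn6*, which were higher in OKMS, and *Grb10*, *Isyna1*, *Spry4*, *Stmn2*, and *Pitpna*, which were higher in MKOS.

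**Figure D1:**
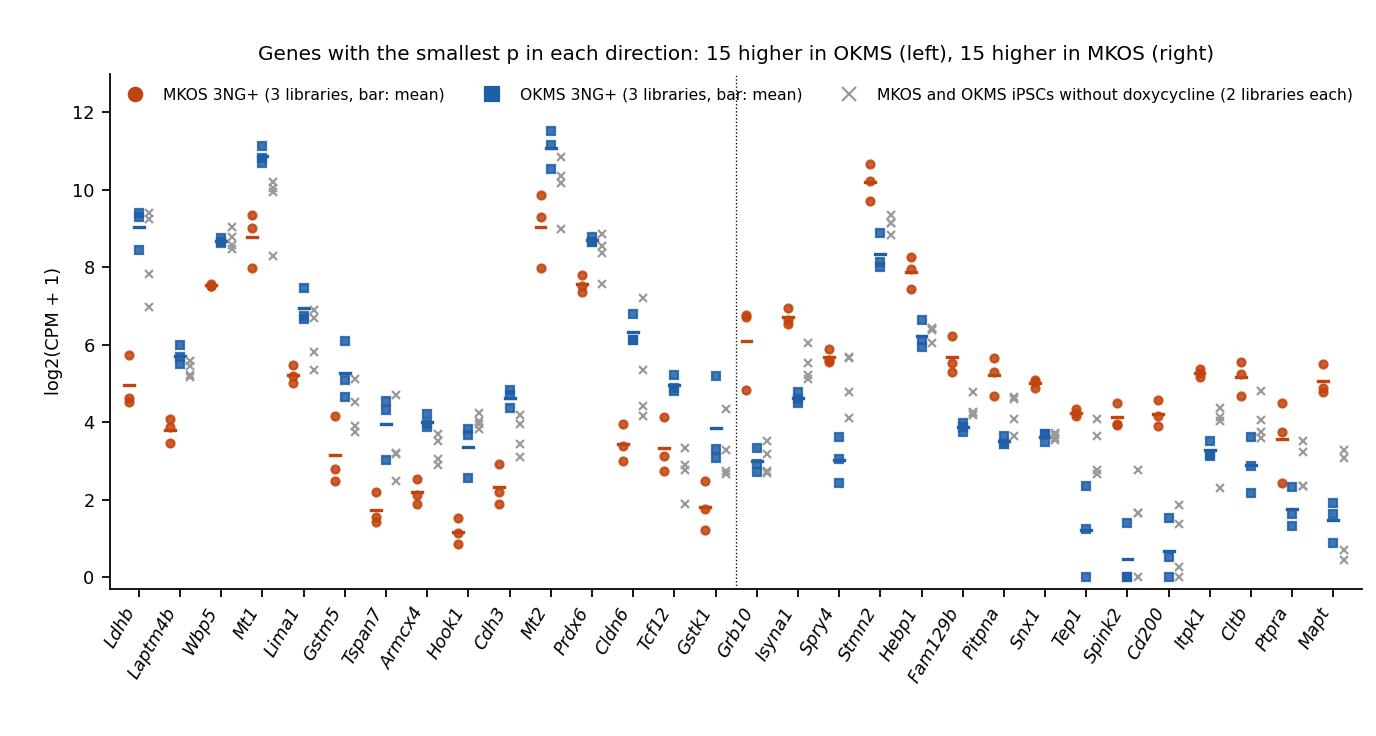
Levels, as log2(CPM + 1), of the 15 named genes with the smallest p in each direction. Circles are the 3 MKOS and squares the 3 OKMS 3NG+ libraries with their means as bars, and crosses are the 4 iPSC libraries. MKOS and OKMS points do not overlap for any of these 30 genes.

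A metabolic gene had the smallest p of all tested genes. *Ldhb* (chr6:142490249-142507957 in GRCm38) encodes the lactate dehydrogenase subunit that favors conversion of lactate to pyruvate. Its level was 22.1, 23.5, and 52.0 CPM in the MKOS libraries and 671, 345, and 631 CPM in the OKMS libraries. The groups did not overlap, and OKMS was 18.6-fold higher (log2 fold change -4.22 ± 0.54, FDR = 2.14e-05). iPSCs without doxycycline had 679.9 and 125 CPM for MKOS and 227 and 604 CPM for OKMS, all above the MKOS 3NG+ libraries. In the list of glycolysis genes, *Ldhb* was the only gene called of 19 tested. In this list 14 genes had a fold change below 0 and the median was -0.60, beside the 0.01 of all tested genes. *Pgk1*, the first ATP-generating kinase of the pathway, was at 432, 296, and 315 CPM in MKOS and 607, 634, and 586 CPM in OKMS (FDR = 0.0556), the glucose transporter *Slc2a3* had a log2 fold change of -0.87 ± 0.27 (FDR = 0.121), and the phosphofructokinase *Pfkl* had -0.85 ± 0.27 (FDR = 0.149). None of the 3 passed the threshold, although their MKOS and OKMS libraries did not overlap.

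The metallothioneins *Mt1* and *Mt2*, 4 glutathione S-transferases, and the peroxiredoxin *Prdx6* were called and higher in OKMS. Metallothioneins are small cysteine-rich proteins that buffer zinc and copper. *Mt1* was at 253, 653, and 512 CPM in MKOS and 2226, 1663, and 1808 CPM in OKMS (log2 fold change -2.14 ± 0.36, FDR = 0.00105). *Mt2*, its neighbor on chromosome 8, was at 252, 931, and 626 and 2953, 1475, and 2285 CPM (log2 fold change -2.03 ± 0.37, FDR = 0.00243). Neither gene overlapped between groups, and MKOS replicate 1 was lowest for both. Of the glutathione S-transferases, which conjugate glutathione to reactive compounds, *Gstm5* was at 17.0, 4.54, and 5.96 CPM in MKOS and 24, 67.8, and 33 CPM in OKMS (log2 fold change -2.32 ± 0.40, FDR = 0.00158). *Gstk1* was at 4.63, 2.37, and 1.34 and 8.95, 35.7, and 7.44 CPM (log2 fold change -2.73 ± 0.53, FDR = 0.00566), and OKMS replicate 2 was the highest library, without which the gene was not called (FDR = 0.0912). The peroxiredoxin *Prdx6*, which reduces phospholipid hydroperoxides, was at 182, 163, and 222 CPM in MKOS and 405, 399, and 439 CPM in OKMS (log2 fold change -1.28 ± 0.24, FDR = 0.00316).

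These families were picked after their values were seen, so their counts are a description. Of 23 tested genes with a *Gsta*, *Gstk*, *Gstm*, *Gsto*, *Gstp*, *Gstt*, *Gstz*, or *Mgst* symbol, 4 were called and all 4 were higher in OKMS, the others being *Gsta4* (log2 fold change -1.22 ± 0.27) and *Mgst1* (-2.10 ± 0.51). *Gsta4* was not called without MKOS replicate 1 (FDR = 0.132), without MKOS replicate 2 (FDR = 0.0572), or without OKMS replicate 3 (FDR = 0.0754). *Mgst1* was not called without MKOS replicate 1 (FDR = 0.162), without MKOS replicate 2 (FDR = 0.185), without OKMS replicate 1 (FDR = 0.0846), or without OKMS replicate 2 (FDR = 0.166). The family's fold changes were below 0 in 15 of 23 genes, with a median of -0.85 and a range from -2.90 to 1.16. All 4 metallothionein genes had fold changes below 0, and of 6 peroxiredoxins 1 was called and 4 were below 0. Other members had the opposite sign and were not called. The microsomal *Mgst3* was at 147, 192, and 172 CPM in MKOS and 76.0, 69.9, and 78.4 CPM in OKMS (log2 fold change 1.03 ± 0.33, FDR = 0.139), *Prdx5* had a log2 fold change of 0.37 ± 0.34, and *Prdx3* had 0.11 ± 0.24. In these 3 genes the MKOS libraries lay above the OKMS libraries in CPM, which is scaled by library size alone. Close homologs of the *Gstm* and *Gsta* clusters can exchange reads that map to several places, so the share of each member is uncertain.

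The called genes of these families moved in the same direction, and STRT counts the transcripts that start at their promoters. The promoters of 3 of them are shown, each with a match to a motif named below. They run from 250 bases before to 50 bases after the gene start (RefSeq, GRCm38.p6). In the first and second, capitals mark the core of the metal response element, TGCGCNC or TGCACNC on either strand. *Mt1* lies on the plus strand of chr8:94178839-94179138, with 3 matches, and *Mt2* on the plus strand of chr8:94172368-94172667, with 4. In *Gstm5*, on the plus strand of chr3:107895604-107895903, capitals mark 1 match to TGACNNNGC, the core of the antioxidant response element. The promoter of *Gstk1* held 0 matches to this core and is not shown.
Mt1: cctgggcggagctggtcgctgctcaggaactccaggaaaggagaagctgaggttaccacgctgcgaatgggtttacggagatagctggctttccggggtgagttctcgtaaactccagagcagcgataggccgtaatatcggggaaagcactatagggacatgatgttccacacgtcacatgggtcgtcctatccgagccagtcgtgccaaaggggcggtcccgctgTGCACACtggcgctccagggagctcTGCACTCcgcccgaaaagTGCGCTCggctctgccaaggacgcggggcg
Mt2: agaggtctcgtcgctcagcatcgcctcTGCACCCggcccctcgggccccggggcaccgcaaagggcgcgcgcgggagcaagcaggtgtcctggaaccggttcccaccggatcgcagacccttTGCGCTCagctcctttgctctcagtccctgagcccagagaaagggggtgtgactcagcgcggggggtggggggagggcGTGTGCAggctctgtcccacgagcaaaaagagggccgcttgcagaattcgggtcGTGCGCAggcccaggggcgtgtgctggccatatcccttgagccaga
Gstm5: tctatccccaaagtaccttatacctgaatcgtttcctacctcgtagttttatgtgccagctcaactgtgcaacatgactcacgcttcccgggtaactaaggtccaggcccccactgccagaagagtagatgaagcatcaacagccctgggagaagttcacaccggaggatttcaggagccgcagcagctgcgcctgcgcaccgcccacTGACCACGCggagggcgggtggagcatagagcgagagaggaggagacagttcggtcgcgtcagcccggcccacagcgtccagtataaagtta

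A metal response core was found in 14 of the 31 promoters of called genes higher in OKMS that had a single promoter entry (45.2%), in 15 of 30 of those higher in MKOS (50%), and in 36.2% of the 8655 such promoters of tested genes. The antioxidant core was found in 8 of 31 (25.8%) and 5 of 30 (16.7%), against 14.7% of tested genes. In all 22862 promoters of this length, these shares were 25.1% and 12.3%. A match is a description of the letters in this window.

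The junction genes *Cldn6* and *Cdh3* were higher in OKMS, while most other epithelial genes were not called. *Cldn6*, a tight junction claudin of early embryonic epithelia, was at 6.94, 9.48, and 14.6 CPM in MKOS and 68.2, 68.5, and 109.9 CPM in OKMS (log2 fold change -3.12 ± 0.58, FDR = 0.00330). P-cadherin, *Cdh3*, was at 2.73, 3.56, and 6.58 and 27.4, 19.6, and 25 CPM (log2 fold change -2.61 ± 0.47, FDR = 0.00201). For neither gene did any library of one group reach the other group. E-cadherin, *Cdh1*, which was used for the sort, had 72.4, 62.6, and 91.5 CPM in MKOS and 149.6, 106, and 151 CPM in OKMS. It was not called (log2 fold change -1.01 ± 0.40, FDR = 0.273), and its groups did not overlap either. Among the 29 simple epithelium genes, *Cldn6* was the only one called, 22 had a fold change below 0, and the median was -0.81. Of 12 tested claudins 1 was called and 8 were below 0. The serine protease *Prss8* (-2.48 ± 0.78, FDR = 0.140), the claudin *Cldn4* (-1.54 ± 0.51, FDR = 0.170), and the recycling GTPase *Rab25* (-1.92 ± 0.69, FDR = 0.218) followed in the order of p and were not called.

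Further genes that were higher in OKMS in every fit encode membrane and cytoskeletal proteins. The lysosomal membrane protein gene *Laptm4b* was at 10.1, 15.8, and 13.8 CPM in MKOS and 44.3, 62.3, and 50.4 CPM in OKMS (log2 fold change -2.11 ± 0.30, FDR = 0.000108). *Lima1*, which encodes an actin-bundling LIM protein, was at 35.5, 31.4, and 43.2 and 176, 100.0, and 106 CPM (log2 fold change -1.96 ± 0.33, FDR = 0.00105). *Hook1*, a linker of endosomes to microtubules, was at 1.89, 1.19, and 0.822 and 13.1, 4.90, and 11.7 CPM (log2 fold change -3.19 ± 0.57, FDR = 0.00201). In each of the 3 genes the lowest OKMS library was above the highest MKOS library. The largest fold changes in this direction were fitted to genes with few or no reads in MKOS. *Angpt1*, a ligand of the TIE2 receptor, had no read in the 3 MKOS libraries and 3.53, 0, and 2.00 CPM in OKMS, at least 16.7-fold higher by pooled reads against a floor of 3 reads over the group. It was also at 0 in OKMS replicate 2, so its groups overlapped, and it stayed called in 1 of the 6 fits without a library, with FDRs of 0.0502 to 0.106 in the other 5. *Car4*, a membrane-anchored carbonic anhydrase, was at 0, 0, and 0.617 and 25.6, 11.2, and 49.8 CPM (log2 fold change -6.77 ± 1.62, FDR = 0.0351), and it was called in 1 of the 6 fits, with FDRs of 0.0539 to 0.162 in the others.

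Naive pluripotency genes had fold changes of either sign. Of 32 naive pluripotency genes, 16 had fold changes above 0 and 16 below. Their median was 0.02 and ranged from -0.12 to 0.21 among the alternatives, and 1 gene was called. This gene was *Dppa3* (Stella), a maternal and germline factor that protects against loss of DNA methylation in the zygote. It was at 24.6, 59.9, and 136 CPM in MKOS and 1127, 498, and 1085 CPM in OKMS. The lowest OKMS library was above the highest MKOS library, and the difference was 13.5-fold (log2 fold change -3.76 ± 0.75, FDR = 0.00707). *Dppa3* was not called without MKOS replicate 1 (FDR = 0.0862) or without MKOS replicate 2 (FDR = 0.0572). In iPSCs the level was at 322 and 117 CPM for MKOS and 482 and 187 CPM for OKMS, below all 3 OKMS 3NG+ libraries. Of the germline list, *Dppa3* was the only one of 22 genes called, 14 were below 0, and the median was -0.37, or 0.07 without OKMS replicate 1. Next in order in the naive list were *Tbx3* (1.36 ± 0.44, FDR = 0.154), *Klf2* (-1.20 ± 0.40, FDR = 0.172), and *Tcl1* (1.07 ± 0.48, FDR = 0.362), which had different signs. *Tbx3* lies downstream of LIF and PI3K signaling in ESCs, and *Klf2* supports the ground state.

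Genes of formative and primed pluripotency, the state that follows implantation, and WNT targets had the lowest medians of the 26 lists. Of 19 formative and primed genes, 18 were below 0 and the median was -1.53, or -0.88 without OKMS replicate 3, while 7 had an unadjusted p under 0.05, against 12.2% of all tested genes, and 1 was called. This gene, the X-linked kinase *Pim2*, was at 5.47, 0, and 5.45 CPM in MKOS and 23.5, 16.8, and 39.8 CPM in OKMS (log2 fold change -3.04 ± 0.77, FDR = 0.0444), was called in 1 of the 6 fits without a library, and had FDRs of 0.0633 to 0.197 in the others. The de novo methyltransferase *Dnmt3a*, at 39.1, 58.5, and 82.2 and 119, 90.9, and 119 CPM (FDR = 0.267), *Cer1*, at 0 in all MKOS libraries and at 11, 4.2, and 9.30 CPM in OKMS (FDR = 0.218), and brachyury *T*, at 0 in MKOS and at 4.04, 0, and 12.9 CPM in OKMS (FDR = 0.201), were not called. *T* was at 0 in OKMS replicate 2 as well, so its groups overlapped. The 14 WNT targets had a median of -1.74, which ranged from -2.09 to -0.68 among the alternatives. The median was -1.22 with the genes that lacked reads in a group set to the bound that 3 reads allow, and -0.81 without OKMS replicate 3. Of the WNT targets 0 were called by edgeR's quasi-likelihood test, with 5 at an unadjusted p under 0.05. *Lef1*, a transcription factor and target of the pathway, was at 0, 0, and 2.16 CPM in MKOS and 3.91, 11.2, and 8.58 CPM in OKMS (FDR = 0.164), and *Dkk1*, a secreted WNT inhibitor, was at 0 in MKOS and at 1.64, 2.80, and 5.87 CPM in OKMS (FDR = 0.172). Of the 8 DNA methylation genes 0 were called (2 at an unadjusted p under 0.05), with *Dnmt3b* at 102, 59.5, and 114 and 181, 127, and 252 CPM. WNT and formative lists share *Lef1* and *T*.

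In the other direction, the smallest p belonged to *Grb10* (chr11:11930499-12037428), an imprinted adaptor that restrains insulin and growth factor receptors. It was at 107, 104, and 27.2 CPM in MKOS and 6.56, 9.09, and 5.58 CPM in OKMS (log2 fold change 3.39 ± 0.48, FDR = 0.000102). The MKOS libraries lay above all OKMS libraries, with MKOS replicate 3 nearest to them. iPSCs had 5.70 and 5.50 CPM for MKOS and 10.5 and 8.02 CPM for OKMS, which overlaps OKMS 3NG+ cells, whereas E-CAD+ 3NG- cells had 153, 119.9, and 54.6 CPM for MKOS and 110.4, 81.4, and 19 CPM for OKMS. *Phlda2*, an imprinted growth suppressor of the placenta on chromosome 7, was at 93.2, 48.8, and 48.5 CPM in MKOS and 6.18, 4.90, and 7.44 CPM in OKMS (log2 fold change 3.12 ± 0.77, FDR = 0.0404), without overlap. It was called in 1 of the 6 fits without a library, and the other FDRs were 0.0649 to 0.155. Both genes went against most of their list. Of 25 imprinted genes, 19 had fold changes below 0, the median was -0.99, and 10 had an unadjusted p under 0.05 in the direction of OKMS, against 5.84% of all tested genes, with 0 called. Noncoding RNAs of the *Dlk1*-*Meg3* region, which are read from the maternal chromosome and often silenced in iPSCs, were among them. *Meg3* was at 28.2, 12, and 26.9 CPM in MKOS and 42.4, 48.3, and 47.4 CPM in OKMS (FDR = 0.0816), and *Rian* was at 9.25, 6.32, and 10.4 and 13.2, 23.8, and 22.2 CPM (FDR = 0.0988), and the groups of both did not overlap.

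*Isyna1*, the rate-limiting enzyme of inositol synthesis, was at 123, 92.1, and 98.6 CPM in MKOS and 21.6, 26.6, and 23.2 CPM in OKMS (log2 fold change 1.99 ± 0.33, FDR = 0.00101), and iPSCs lay between them, at 36.3 and 65.5 CPM for MKOS and 33.6 and 45.1 CPM for OKMS. *Pitpna*, which transfers phosphatidylinositol between membranes, was at 49.6, 24.7, and 38.4 and 9.84, 9.79, and 11.6 CPM (log2 fold change 1.66 ± 0.32, FDR = 0.00529). Another gene of this metabolism, the inositol phosphate kinase *Itpk1*, was at 40.2, 35, and 37.7 and 7.82, 10.5, and 7.87 CPM (log2 fold change 1.98 ± 0.42, FDR = 0.0130), and was not called without OKMS replicate 1 (FDR = 0.0654) or without OKMS replicate 3 (FDR = 0.0949). No library of one group reached the other in any of the 3 genes. The promoter of *Isyna1*, on the plus strand of chr8:70594231-70594530, is shown since KLF4 differs between the cassettes. Capitals mark its 1 match to the KLF motif, searched as GGGTGTGG or GGGCGTGG on both strands. The promoters of *Ldhb*, *Cldn6*, and *Phlda2*, searched in the same way, held 0 matches and are not shown.
Isyna1: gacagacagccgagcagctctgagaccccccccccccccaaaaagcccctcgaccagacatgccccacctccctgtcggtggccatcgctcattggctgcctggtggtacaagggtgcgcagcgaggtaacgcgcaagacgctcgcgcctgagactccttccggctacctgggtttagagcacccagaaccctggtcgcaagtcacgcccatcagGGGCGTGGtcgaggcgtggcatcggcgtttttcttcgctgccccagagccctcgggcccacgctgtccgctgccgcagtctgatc

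The KLF motif was found in 8 of 30 single-entry promoters of genes higher in MKOS (26.7%), namely those of *Isyna1*, *Hebp1*, *Cd200*, *Ano10*, *Cdc27*, *Nxn*, *Basp1*, and *Afg3l1*, in 2 of 31 of genes higher in OKMS (6.45%), and in 13.3% of tested genes, or 8.62% of all promoters of this length. The octamer ATTTGCAT was found in 0 and 1 of them, against 1.61% of tested genes, and the E-box CACGTG in 2 and 2, against 10.1%. Of the KLF factors themselves, 0 of 16 were called and 3 had an unadjusted p under 0.05. *Klf10* was at 32.0, 41.3, and 26.5 CPM in MKOS and 8.45, 15.4, and 11.3 CPM in OKMS (FDR = 0.0707), *Klf2* was at 39.3, 28, and 48.5 and 78.8, 87.4, and 74.7 CPM, and *Klf16* had a log2 fold change of 1.01 ± 0.38 (FDR = 0.248). The groups of *Klf10* and *Klf2* did not overlap.

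Counts at the genes of the 4 factors did not differ beyond the threshold, and 1 of 4 had an unadjusted p under 0.05. Whether reads of the cassette are among these counts is not known. *Pou5f1* was at 1055, 978, and 898 CPM in MKOS and 535, 499, and 879 CPM in OKMS (log2 fold change 0.45 ± 0.34). *Klf4* had 0.52 ± 0.38, *Sox2* had -0.45 ± 0.36, and *Myc*, at 48.8, 26.9, and 41.4 and 12.2, 28.7, and 15.6 CPM, had 0.96 ± 0.46, with FDRs of 0.603, 0.588, 0.633, and 0.398. *Sp3*, the targeted locus, had a log2 fold change of 0.22 ± 0.31, *Nanog* -0.38 ± 0.45, *Icam1* -0.41 ± 0.58, and *Cd44* 0.26 ± 0.83, and 0 of these 4 had an unadjusted p under 0.05.

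A feedback gene of FGF signaling was higher in MKOS. *Spry4*, an inhibitor of receptor tyrosine kinase signaling that ERK induces, was at 57.8, 47.6, and 46.0 CPM in MKOS and 7.31, 11.2, and 4.44 CPM in OKMS (log2 fold change 2.67 ± 0.49, FDR = 0.00304). The MKOS libraries were all above the OKMS libraries. *Spry4* was the only gene called of 16 in the FGF and ERK list, with 7 genes above 0. The list's median was -0.13, or 0.20 without OKMS replicate 2, and ranged from -0.19 to 0.36 among the alternatives. In the direction of MKOS, 5 genes had an unadjusted p under 0.05. Among these, the pleckstrin homology gene *Phlda1* was at 24.4, 14.2, and 9.56 and 2.02, 6.29, and 0 CPM (FDR = 0.0906), the ETS factor *Etv4* at 28, 19.4, and 20.1 and 1.39, 19.6, and 2.15 CPM (FDR = 0.231), and *Spry2* at 26.7, 27.5, and 21.3 and 9.96, 1.40, and 15.2 CPM (FDR = 0.286). In OKMS replicate 2, *Etv4* was at the level of the MKOS libraries.

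The genes *Stmn2*, *Mapt*, *Cd200*, *Spink2*, *Slurp1*, and *Sbsn* were called and higher in MKOS. *Stmn2*, a microtubule-destabilizing stathmin of neurons, was at 1196, 1617, and 840.4 CPM in MKOS and 281, 473, and 258 CPM in OKMS (log2 fold change 1.72 ± 0.32, FDR = 0.00389), and it was called in every fit. *Mapt*, which encodes tau, was at 26.5, 44.6, and 28.4 and 2.77, 2.10, and 0.858 CPM (log2 fold change 3.97 ± 0.86, FDR = 0.0157), and was not called without MKOS replicate 2 (FDR = 0.0572) or without OKMS replicate 3 (FDR = 0.143). *Cd200*, an immunoregulatory glycoprotein, was at 13.9, 16.8, and 22.9 and 1.89, 0, and 0.429 CPM (log2 fold change 3.98 ± 0.83, FDR = 0.0107), and was not called without OKMS replicate 3 (FDR = 0.117). All 3 genes were apart between the groups. *Spink2*, a serine protease inhibitor, was at 21.5, 14.4, and 14.3 CPM in MKOS, and at 1.64, 0, and 0 CPM in OKMS (log2 fold change 4.26 ± 0.85, FDR = 0.00707), and was not called without OKMS replicate 3 (FDR = 0.0994). *Slurp1*, a secreted Ly6 protein of keratinocytes, was at 36.2, 1.58, and 2.16 CPM in MKOS, mostly in replicate 1, and at 0 in all OKMS libraries, which is at least 56.0-fold higher by pooled reads. Without MKOS replicate 1, *Slurp1* was not called (FDR = 0.246), and it was called in 2 of the 6 fits. *Sbsn*, a secreted epidermal protein, was at 13, 1.58, and 15.1 and 0.252, 0, and 0.143 CPM, with a ratio of pooled reads of 60.5 (95% exact interval 20.4 to 296, counting error only), and was called in 1 of the 6 fits.

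Low-count genes higher in MKOS were *Dysf*, a membrane repair protein of muscle, at 6.73, 2.57, and 1.03 CPM in MKOS, *Fam101b*, a regulator of actin filaments, at 6.10, 3.75, and 1.34 CPM, and *Mtap6*, a microtubule stabilizer, at 4.0, 1.78, and 0.925 CPM. All 3 were at 0 in OKMS, which is at least 15.3-fold, 17.0-fold, and 10.3-fold higher in MKOS by pooled reads. MKOS replicate 1 was the highest library for each. Without it their FDRs were 0.123, 0.0731, and 0.155.

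Fibroblast, contractile, and epidermal genes were uneven among the libraries. *Lox*, which crosslinks collagen, was the only one of 31 fibroblast genes called, at 74.0, 11.9, and 29.3 CPM in MKOS and 2.77, 1.40, and 7.58 CPM in OKMS (log2 fold change 2.88 ± 0.68, FDR = 0.0311). It was not called without MKOS replicate 1 (FDR = 0.235), without OKMS replicate 1 (FDR = 0.144), or without OKMS replicate 2 (FDR = 0.102). The list's median was 0.15, or 0.18 with genes lacking reads at their bound, with 17 genes above 0. *Col5a2* was at 102, 21.1, and 30.3 and 16.1, 26.6, and 9.59 CPM, and *Col1a1* at 180.2, 17.2, and 74.0 and 39.6, 47.6, and 24.8 CPM (FDR = 0.188 and 0.340). For both fibrillar collagens MKOS replicate 1 was the highest library, and the groups overlapped. Of 23 actin and contractile genes, 20 had fold changes above 0 with a median of 0.34 that was -0.13 without MKOS replicate 1, and 0 were called, with 6 at an unadjusted p under 0.05. The summed level of the list was 5914, 3247, and 4047 CPM in MKOS and 2901, 3271, and 3509 CPM in OKMS. *Acta2*, smooth muscle actin, was at 365, 21.9, and 48.2 and 14, 75.5, and 19.9 CPM, and *Tagln2* at 175, 180.3, and 170.3 and 48, 115, and 51.4 CPM (FDR = 0.0818). Of 26 epidermal genes 0 were called, 15 were above 0, 9 had an unadjusted p under 0.05, and the median was 0.53, or 0.00 without MKOS replicate 1. *Krt14* was at 19.8, 0.593, and 1.13 CPM in MKOS and at 0 in OKMS, while *Fgfbp1* was at 0, 14, and 13.1 CPM in MKOS and 33.3, 129, and 27.5 CPM in OKMS (FDR = 0.152 and 0.126). The summed level of the epidermal list, 496, 277, and 406 CPM in MKOS and 170.1, 386, and 183 CPM in OKMS, was highest for OKMS in replicate 2, and was 288 to 1885 CPM in E-CAD+ 3NG- cells. The part of such cells in the differences above was not tested.

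**Figure D2:**
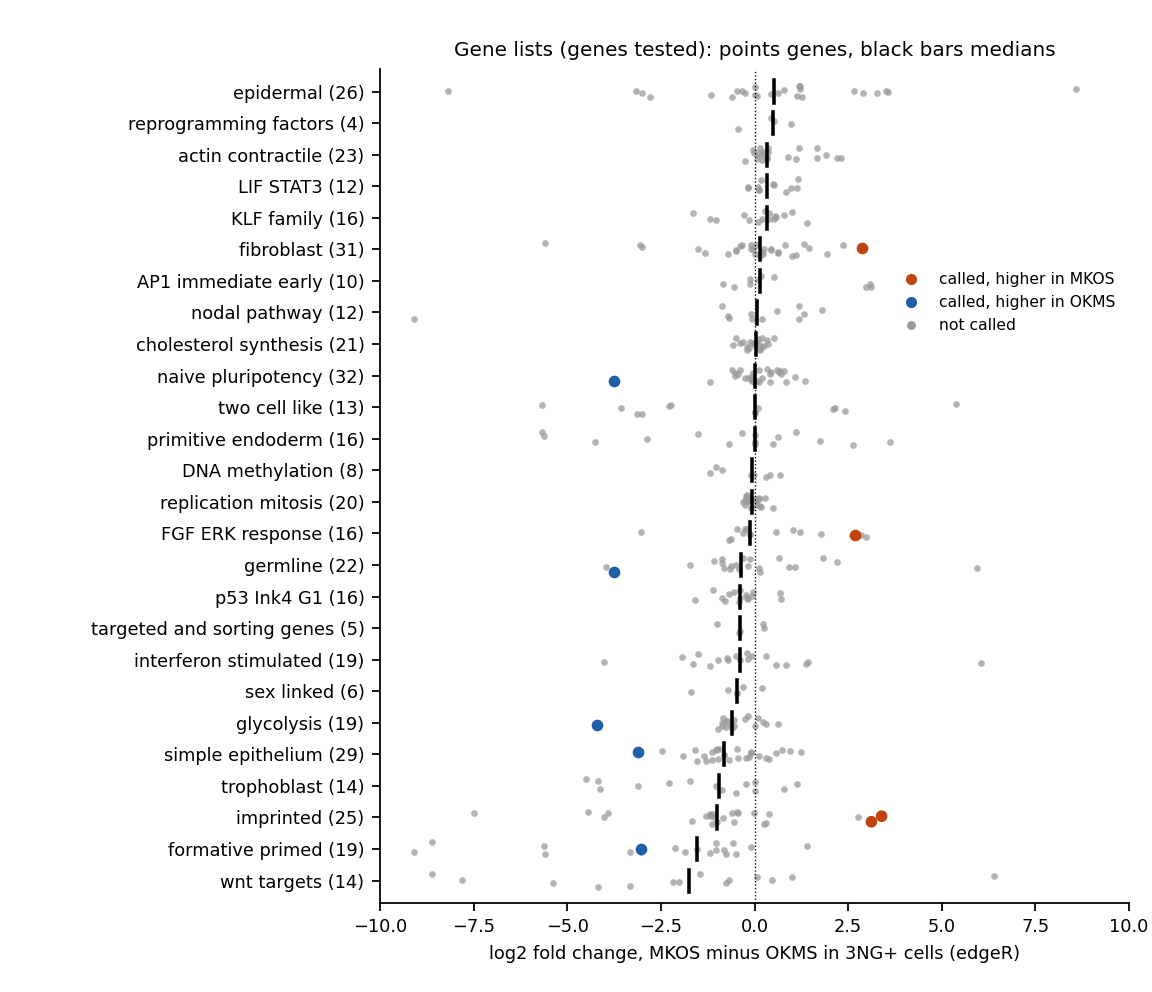
Log2 fold change (MKOS minus OKMS) of every tested gene of the 26 lists, ordered by the list's median, with the number of tested genes in parentheses. Black bars are medians, colored points are called genes, and the dotted line is the median of all tested genes; WNT targets and formative or primed genes lie farthest to the left and 9 list entries are called, 1 gene being in 2 lists.

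The other lists held no called gene by edgeR's quasi-likelihood test, and the share of all tested genes at an unadjusted p under 0.05 was 12.2%. Of 12 LIF and STAT3 genes 10 were above 0 with a median of 0.33 and 1 at an unadjusted p under 0.05, the kinase *Jak1* (38.1, 11.9, and 18.3 CPM in MKOS and 8.07, 16.8, and 5.15 CPM in OKMS, FDR = 0.0957). Of 12 genes of the nodal pathway 6 were above 0 and 3 had an unadjusted p under 0.05, among them *Lefty2*, a secreted nodal inhibitor, at 424, 332, and 171 and 104, 46.9, and 83.3 CPM (FDR = 0.251). Of 16 p53 and G1 genes 14 were below 0, with a median of -0.38 and 4 at an unadjusted p under 0.05, among them the proapoptotic *Bbc3* at 8.41, 6.12, and 4.83 and 18.5, 10.5, and 21.0 CPM (FDR = 0.0988). Medians were -0.39 for 19 interferon-stimulated genes, -0.08 for 20 genes of replication and mitosis, 0.05 for 21 of cholesterol synthesis, and 0.14 for 10 immediate early genes, with 2, 0, 0, and 2 at an unadjusted p under 0.05. Markers of trophoblast, of the two-cell-like state, and of primitive endoderm were summed as well. The 14 trophoblast genes summed to 10.9 to 35.4 CPM (median -0.94, 2 at an unadjusted p under 0.05), and the 16 genes of the two-cell-like state to 209 to 309 CPM, 10 of the 13 tested having no read in at least 1 group. Of the 16 primitive endoderm genes, which summed to 136 to 489 CPM, 4 had an unadjusted p under 0.05, of either sign. The laminin *Lama1* had the smallest p, at 18.1, 17.6, and 18 CPM in MKOS and 0.883, 9.79, and 1.14 CPM in OKMS without overlap (log2 fold change 2.64 ± 0.72, FDR = 0.0707), and the collagen *Col4a1* was at 47.7, 8.30, and 11.4 and 5.30, 11.2, and 3.29 CPM (FDR = 0.208). The lineage transcription factors *Sox17* and *Foxa2* were at 0 in MKOS and at most at 2.00 CPM in OKMS.

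Genes on the X chromosome stood apart from autosomal genes, a pattern looked at after the called genes were seen. X-linked genes made up 592 of the tested genes (3.79%), but 9 of the 53 called genes that were higher in OKMS (17.0%) and 1 of the 54 that were higher in MKOS. The 9 were *Wbp5*, *Tspan7*, *Armcx4*, *Hmgn5*, *Bcor*, *Rragb*, *Xlr3b*, *Lrch2*, and *Pim2*. No autosome held more than 6 called genes higher in OKMS. Leaving out 1 library left 4 to 8 X-linked genes called higher in OKMS, and 5 of 64 such calls without MKOS replicate 3. *Wbp5*, a small TCEAL family gene, was at 181, 190.0, and 183 CPM in MKOS and 429, 395, and 404 CPM in OKMS (log2 fold change -1.30 ± 0.20, FDR = 0.000251). The tetraspanin *Tspan7* was at 1.68, 3.56, and 1.95 and 7.19, 18.9, and 22.3 CPM (log2 fold change -2.88 ± 0.50, FDR = 0.00158), and *Armcx4*, an armadillo repeat gene, was at 2.73, 3.36, and 4.83 and 14.4, 17.5, and 13.6 CPM (log2 fold change -2.15 ± 0.38, FDR = 0.00158). In all 3 the groups were apart and the call held without any 1 library. *Bcor*, a corepressor of BCL6, was at 10.5, 11.5, and 15.1 and 36.4, 23.1, and 31.8 CPM (log2 fold change -1.46 ± 0.34, FDR = 0.0288), was called in 2 of the 6 fits without a library, and had FDRs of 0.110 to 0.162 in the other 4. *Rragb*, a GTPase that signals amino acids to mTORC1, was at 0, 0.198, and 0.617 and 7.69, 6.29, and 12 CPM (log2 fold change -4.88 ± 1.16, FDR = 0.0311), and was likewise called in 2 of 6. *Xlr3b* has near-identical copies on the X chromosome, so its level of 5.26, 8.89, and 5.34 and 56.1, 14.7, and 40.3 CPM is that of the family.

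The median log2 fold change of tested genes was -0.27 for the X chromosome and between 0.00 and 0.13 for the 19 autosomes. With genes above an average of 4 log2 CPM alone, these were -0.21 for 196 X-linked genes and -0.02 to 0.13 for the autosomes. Reads on the X chromosome per 100 reads on autosomes were 2.98, 2.97, and 2.98 in MKOS and 3.25, 3.21, and 3.14 in OKMS, without overlap. Without the called genes they were 2.95, 2.94, and 2.95 in MKOS and 3.18, 3.15, and 3.07 in OKMS. The X-linked median stayed below that of all genes in each of the 12 alternatives, with the X chromosome at -0.33 to -0.03 and all genes at 0.00 to 0.17. *Xist*, the RNA of X inactivation, was at 7.15, 1.98, and 3.49 CPM in MKOS and 5.42, 8.39, and 5.01 CPM in OKMS. The Y-linked *Eif2s3y* was at 125, 128, and 189 and 215, 173, and 164 CPM, and neither gene was called. The 8 tested Y-linked genes also leaned to OKMS, with a median log2 fold change of -0.68, 7 below 0, and 0 called. MKOS iPSCs had 0.311 and 0 CPM of *Eif2s3y* and OKMS iPSCs 216 and 258 CPM, so the iPSC lines are not alike in Y-linked reads. In E-CAD+ 3NG- cells, 15 of the 123 genes called higher in OKMS and 8 of the 216 called higher in MKOS were X-linked. X-linked genes were 3.79% of tested genes. The read ratios in 3NG- cells, of 3.99, 3.71, and 3.36 for MKOS and 3.80, 3.89, and 3.18 for OKMS, overlapped. The median of X-linked genes there was -0.16, with autosome medians from -0.03 to 0.08. The X-linked medians in iPSCs, ESCs, and MEFs were 0.00, 0.00, and 0.00. The ESC lines, from which the chimeras were made, had 3.15 and 3.29 for TNG MKOS and 2.98 and 3.07 for TNG OKMS.

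**Figure D3:**
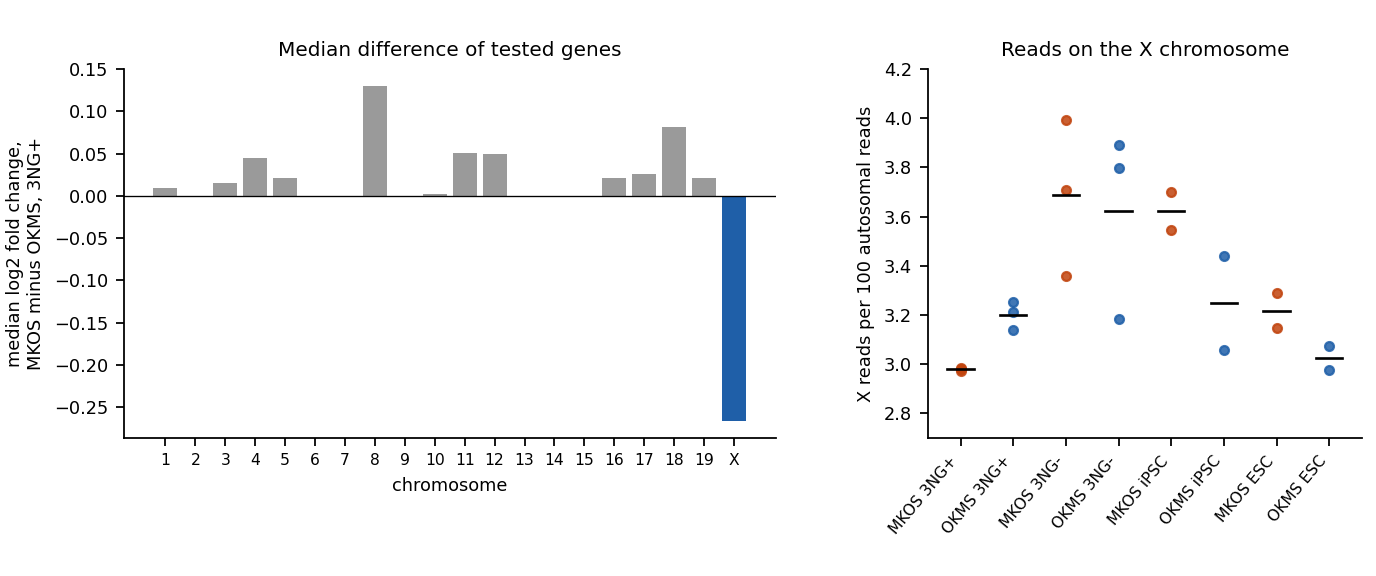
Left, median log2 fold change (MKOS minus OKMS, 3NG+ cells) of tested genes on each chromosome, for the 19 autosomes and the X chromosome, where the X chromosome is at -0.27 and the autosomes are between 0.00 and 0.13. Right, reads on the X chromosome per 100 autosomal reads in each library (points, MKOS in red and OKMS in blue, bars are means), where the y axis does not start at 0 and the 3 MKOS 3NG+ libraries lie near 2.98, below the OKMS 3NG+ libraries at 3.14 to 3.25.

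The cassettes also differed in E-CAD+ 3NG- cells, which come from the same gate without *Nanog*-GFP and are other libraries, so the called genes of 3NG+ cells can be looked up there. In 3NG- cells 339 genes were called (2.17%), 216 higher in MKOS (1.38%) and 123 higher in OKMS (0.787%). Of the 54 genes higher in MKOS 3NG+ cells, 17 were called in 3NG- cells in the same direction, 31.5% of this list and 7.87% of the 216. Of the 53 higher in OKMS, 18 were, 34.0% of this list and 14.6% of the 123. None was called in the opposite direction, and the fold changes had the same sign in 49 of 54 and 50 of 53 genes. The share of all tested genes with the same sign is not given here, so no conclusion is drawn from these sign counts. Whether same-numbered libraries of the populations came from the same cultures is not stated. OKMS 3NG- replicate 3 stood apart from replicates 1 and 2, for example in the naive pluripotency sum of 3104, 2164, and 6824 CPM.

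*Spink2* was at 57.8, 56.2, and 79.8 CPM in MKOS 3NG- cells and 0.446, 0, and 0 CPM in OKMS 3NG- cells. *Slurp1* was at 108, 16.2, and 12.6 CPM in MKOS and 0 in OKMS, and *Tgm2*, a transglutaminase that crosslinks proteins, at 192, 197, and 146 and 7.94, 17.9, and 2.83 CPM, against 55.5, 21.1, and 25.8 and 0.757, 15.4, and 2.15 CPM in 3NG+ cells. These genes were higher in MKOS 3NG- than in MKOS 3NG+ cells in mean and low in iPSCs, with *Tgm2* at 4.87 and 0.355 CPM for MKOS and 7.63 and 4.10 CPM for OKMS iPSCs. Among genes higher in OKMS, *Gstm5* was at 52.7, 27.7, and 25 CPM in MKOS and 159, 160.4, and 114 CPM in OKMS 3NG- cells, and *Tspan7* at 8.26, 8.03, and 9.59 and 57.9, 50.2, and 76.5 CPM. For *Ldhb* the order of the cassettes was the same, at 39.8, 34.5, and 77.9 CPM in MKOS and 150.0, 146, and 255 CPM in OKMS 3NG- cells. *Dppa3* overlapped there, at 87.3, 124, and 285 and 204, 122, and 542 CPM.

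The difference between the cassette effects, tested as an interaction, was called for 4 genes (0.0256%). *Isyna1* was called in 3NG+ cells and not in 3NG- cells, where it was at 39.1, 52.3, and 67.6 CPM in MKOS and 70.3, 95.2, and 45.0 CPM in OKMS, and the difference of the log2 fold changes was 2.52 ± 0.45 (FDR = 0.0115). The other 3 were called in 3NG- and not in 3NG+ cells. *Khdc3*, an oocyte and ESC gene of the subcortical maternal complex, was at 19.3, 24.9, and 108 CPM in MKOS and 0.446, 0.238, and 0 CPM in OKMS 3NG- cells, and at 22.3, 19.6, and 38.1 and 5.17, 27.3, and 9.87 CPM in 3NG+ cells (difference -6.37 ± 1.18, FDR = 0.0285). *Gpa33*, a surface antigen of intestinal epithelium, was at 65.2, 56.2, and 108 and 9.46, 1.67, and 8.24 CPM in 3NG- cells and at 45.4, 45.2, and 56.4 and 55.1, 28.7, and 40.3 CPM in 3NG+ cells (difference -3.33 ± 0.56, FDR = 0.00910). *Zdbf2*, an imprinted gene read from the paternal chromosome, was higher in OKMS 3NG- cells, at 4.80, 4.72, and 2.51 and 72.1, 58.1, and 36.7 CPM, and at 18.3, 7.70, and 9.97 and 10.1, 18.2, and 16.6 CPM in 3NG+ cells (difference 3.43 ± 0.67, FDR = 0.0316). Without MKOS 3NG+ replicate 1 the interaction called 0 genes by edgeR, while without OKMS 3NG- replicate 3 it called 14, these 4 included. The naive pluripotency genes had a median of 1.04 in 3NG- cells with 9 called, all higher in MKOS. In 3NG+ cells their median was 0.02 with 1 called, and no gene of this list was called in the interaction. Formative and primed genes had a median of -1.88 in 3NG- cells, with 2 called higher in OKMS and 0 in MKOS. Imprinted genes had a median of -1.18 there, with 6 called higher in OKMS and 1 in MKOS. The lean of these lists was thus not particular to 3NG+ cells.

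**Figure D4:**
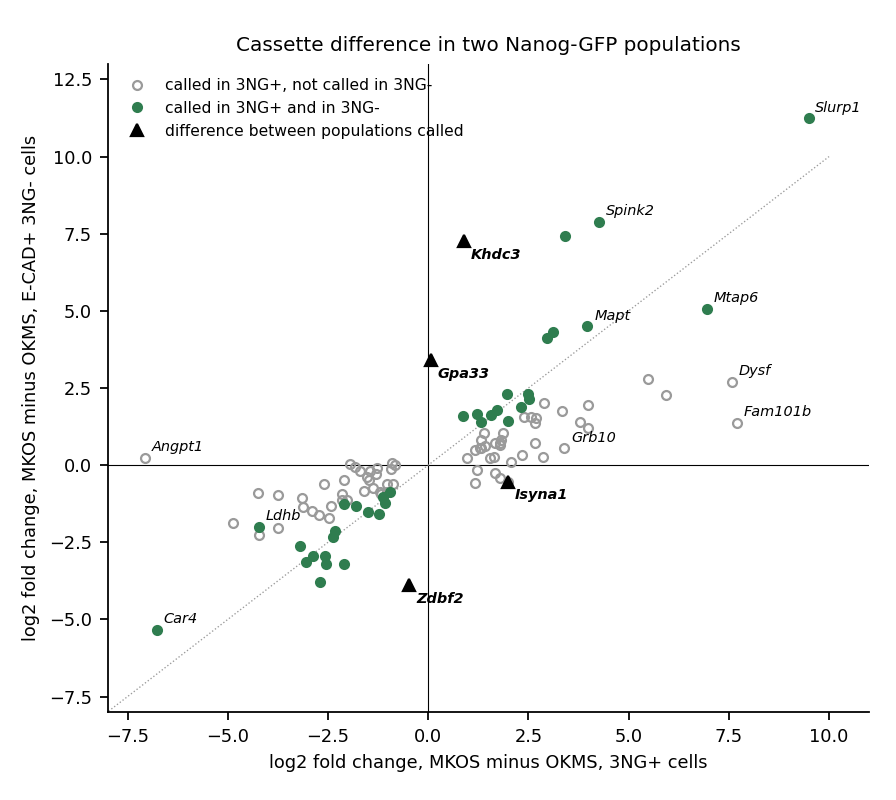
Log2 fold change (MKOS minus OKMS) of the 107 genes called in 3NG+ cells (x axis) against that in E-CAD+ 3NG- cells (y axis), from separate libraries. Filled circles are the 35 genes called in both populations, triangles the 4 genes whose difference between populations was called, and the dotted line marks equal values; *Isyna1* lies below the x axis and to the right.

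In the cells before and after reprogramming, the same comparison called few genes. Between MKOS and OKMS iPSCs without doxycycline 3 genes were called (0.0192%), between TNG MKOS and TNG OKMS ESCs 10 (0.064%), and between MEFs 16 (0.102%), and none of the 107 genes was among them, with 2 libraries per group. The level of the 107 genes in the 4 iPSC libraries, by mean log2(CPM + 1), was nearer to OKMS than to MKOS 3NG+ cells for 43 of the 53 genes higher in OKMS (81.1%) and for 33 of the 54 genes higher in MKOS (61.1%), against 49.8% of all tested genes. In 33 of the 53 genes higher in OKMS, all 4 iPSC libraries were above all 3 MKOS libraries, against 5.64% of all tested genes, and in 7 they were below all 3 OKMS libraries, against 2.67%. In 30 of the 54 genes higher in MKOS, all 4 were below all 3 MKOS libraries, against 7.45% of all tested genes, and in 23 they were above all 3 OKMS libraries, against 7.1%. Against the 4 TNG MKOS and TNG OKMS ESC libraries, 38 of 53 (71.7%) and 27 of 54 (50%) were nearer to OKMS, and 45.4% of all tested genes were. The 107 genes were called on these same 3NG+ libraries. Their shares can therefore exceed those of all tested genes through that choice alone, and no conclusion is drawn from the excess. *Laptm4b*, *Wbp5*, and *Prdx6* were at 47.0 and 36.4, 355 and 382, and 331 and 376 CPM in MKOS iPSCs, and thus above their MKOS 3NG+ libraries in each case. *Spink2*, *Cd200*, and *Slurp1* had at most 5.77, 2.66, and 0.178 CPM in any iPSC library.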

How the data were processed

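RNA was measured by STRT, a 5′-end method, in 48 libraries of 20 conditions, of which the 6 libraries of 3NG+ cells were compared here. The authors deposited raw counts of reads per transcript, repeat, and spike-in in 1 table, made with Bowtie 0.12.7 on mm10 per the labels, while the methods of the study name mm9. Of 20698 symbols shared with the GRCm38 annotation, 98.2% lay inside that gene or within 100 bases before it, so positions are given in GRCm38. Per the file headers, reads with several mapping places were included and assigned to their most 5′ exonic hit, so members of near-identical families can share reads. STRT reads report transcript starts, so gene length does not enter, and a start outside the annotated 5′ end is missed.

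Only the 24264 transcript rows were used, and 1554 repeat and 104 spike-in rows were left out of library sizes. The 15630 genes that passed edgeR's expression filter by condition were scaled by TMM and fitted over all 48 libraries with 1 term per condition (edgeR 4.0.16, R 4.3.3, quasi-likelihood test, Benjamini-Hochberg FDR at most 0.05). CPM values were computed here from the deposited counts, scaled to the same total of reads on transcripts in each library. Folds without reads in a group are lower bounds from a floor of 3 reads over the group. The difference between 3NG+ and 3NG- cells was an interaction contrast. Alternatives were DESeq2 1.42.0, its size factors, library size alone, no filter, the compared libraries alone, a replicate block, and leaving out each library. The code was tested on simulated counts. Total reads per library ranged from 1429717 to 9730611 in 3NG+ cells, and the shallowest library limits what can be seen in OKMS.

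Genes named in the text are the 15 called genes with the smallest p and the 5 with the largest fold change in each direction, the factor and sorting genes, called members of the 26 gene lists with up to 4 members of smallest p per list, and the genes called in the interaction. Others (*Gsta4*, *Mgst1*, *Mgst3*, *Prdx3*, *Prdx5*, *Dppa5a*, *Mapt*, *Tgm2*, *Sbsn*, *Meg3*, *Rian*, *Acta2*, *Foxa2*, and, of the X-linked genes, *Bcor*, *Hmgn5*, *Lrch2*, and *Xlr3b*) and the genes listed for a motif were chosen after their values were seen. The comparison and lists were chosen with earlier results of these data known.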

Additional observations from a re-analysis of the deposited data

Results flagged for a closer look

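For 4 genes the cassette difference (log2, MKOS minus OKMS) in 3NG+ cells differed from that in E-CAD+ 3NG- cells by the interaction test of edgeR. The difference of the differences was -6.37 for *Khdc3*, -3.33 for *Gpa33*, 3.43 for *Zdbf2*, and 2.52 for *Isyna1*. *Khdc3* and *Gpa33* were higher in MKOS than in OKMS 3NG- cells, *Zdbf2* was higher in OKMS 3NG- cells, and *Isyna1* was higher in MKOS 3NG+ cells. Without MKOS 3NG+ replicate 1 none of the 4 passed the threshold, at FDRs of 0.150, 0.0527, 0.264, and 0.0527, while the differences themselves were -6.23, -3.24, 3.07, and 2.44.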

How the results depend on the processing

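Against 107 called genes in 3NG+ cells (54 higher in MKOS and 53 in OKMS), DESeq2 called 248 (116 and 132) and edgeR without a filter on low counts called 484 (229 and 255). Library size alone called 94 genes higher in MKOS, 69.6% of its calls, and moved the median of all genes to 0.17. Leaving out 1 library gave 40 to 125 genes, with 17 to 61 higher in MKOS and 20 to 64 in OKMS. Of the 107 genes, 103 remained called with DESeq2, 95 with library size alone, and 37 to 87 without 1 library, and none changed sign. With the compared libraries alone, 96 genes were called, 42 higher in MKOS and 54 higher in OKMS. In that fit 50 of the 107 genes remained called, and 7 of the 107 were not tested. The deviations of same-numbered libraries from their group means correlated at -0.03, 0.01, and 0.07, and those of other pairs at -0.08 to 0.06. Each mean is of only 3 libraries, so these values cannot decide whether replicate numbers pair the libraries. With the replicate block 159 genes were called, 81 of them higher in OKMS, and all 107 genes remained called.

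For the interaction, 4 genes became 20 with DESeq2, 163 without a filter, 11 with the compared libraries alone, and 0 to 14 without 1 library. In 3NG- cells DESeq2 called 546 and no filter 864 genes. In iPSCs these were 37 and 135, in MEFs 63 and 174, and in ESCs 104 without a filter. For the 43 named genes that were called, 424 of 511 alternative values stayed called in the same direction, 87 lost the call, and 0 reversed. Causes were not tested. The depth of OKMS replicate 2 limits genes below 2.10 CPM.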
